A study of Mus musculus with 4 samples.

Results

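YAP binding was examined at 10 genes that set the balance between survival and death of a cell, 8 of the BCL2 family and 2 that encode inhibitor of apoptosis proteins (IAPs). The genes were Bcl2, Bcl2l1, Mcl1, Birc2 and Birc3, which favour survival, and Bax, Bid, Bbc3, Bmf and Bcl2l11, which favour death. A peak belonged to a gene when its summit, the highest point of the peak, lay inside the gene span, or within 100 kb of it with no other protein-coding gene nearer. By this rule 40 of 36576 peaks in wild type (WT) and 15 of 14879 peaks in knockout (KO) epidermis belonged to the 10 genes. Chromatin immunoprecipitation and sequencing with an anti-YAP antibody had been run on epidermal cells of mice 18 to 25 weeks old, killed at Zeitgeber time 4 (ZT4, 4 h after lights on). The groups were Bmal1 WT and Bmal1 KO, with 1 list of peaks each, and no file of the 2 input samples was analysed here. The protocol text of the labels calls the knockout Bmal1cKO. The sources used here name neither the cells in which Bmal1 was deleted nor the animals combined in a list.

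Cells commit to apoptosis when BAX and its relative BAK open the outer membrane of mitochondria. BCL2, BCL-XL (from Bcl2l1) and MCL1 hold them back, and the BH3-only proteins BIM (Bcl2l11), BID, PUMA (Bbc3) and BMF release that hold. The IAPs encoded by Birc2 and Birc3 are ubiquitin ligases that steer signals of the TNF receptor towards NF-κB and survival. YAP is a co-activator brought to DNA by TEAD factors, with growth and survival genes among its known targets, and BMAL1 activates transcription in the core loop of the circadian clock. A peak near a gene is a place where YAP was found and says nothing of the level of its transcript.

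The peak lists were of unequal length, and each genotype had 1 list, so no value has a replicate error and no test between genotypes was possible. Values are whole reads at the summit, recovered from the fold and −log10 p that the authors deposited for each peak. Evenly spread reads would give 9.63 reads at any position in both lists, and reads are set side by side on that footing. How well the pull-down worked in each sample is not corrected for. With 1 list per genotype it cannot be told apart from genotype. Summits ran from 28 reads in WT and 29 in KO, with medians of 61 and 52. With bulk cells, binding in fewer cells and weaker binding per cell cannot be told apart. A WT peak was linked to 10 of 10 keratinocyte marker genes, 3 of 6 for Langerhans cells and other leukocytes, 4 of 5 for melanocytes, 1 of 6 for fibroblasts and 1 of 4 for endothelium, where 53.2% of all protein-coding genes had one. These counts describe where YAP lay and do not measure which cells were present.

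A WT peak lay over 15 of the 18 start windows of the 10 genes, and the windows below were picked from these. A start window ran from 250 bases before to 50 bases after an annotated transcription start, and the 250 bases before the start are printed 5′ to 3′ in the direction of the gene (RefSeq, GRCm38.p6, the assembly called mm10). Capitals mark the TEAD core GGAATG, read on either strand, and the E-box CACGTG, the letters bound by BMAL1 with its partner CLOCK. The AP-1 letters TGANTCA were also searched on both strands and occurred in none of the 18 start windows of the 10 genes. The printed windows are all those that held a TEAD core or an E-box, and a window of Birc2 that held neither.
Mcl1 (chr3:95658471-95658720, plus strand): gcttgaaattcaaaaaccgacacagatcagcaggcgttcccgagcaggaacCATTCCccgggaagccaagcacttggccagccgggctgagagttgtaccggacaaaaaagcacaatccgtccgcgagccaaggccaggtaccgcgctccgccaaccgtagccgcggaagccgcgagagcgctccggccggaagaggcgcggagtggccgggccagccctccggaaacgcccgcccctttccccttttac
Bcl2l1 (chr2:152831729-152831978, minus strand): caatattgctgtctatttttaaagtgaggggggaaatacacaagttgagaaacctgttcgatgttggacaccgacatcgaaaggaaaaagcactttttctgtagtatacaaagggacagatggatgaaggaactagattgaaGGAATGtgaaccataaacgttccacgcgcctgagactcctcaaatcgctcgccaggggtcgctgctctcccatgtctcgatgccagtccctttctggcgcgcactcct
Birc2 (chr9:7837058-7837307, minus strand): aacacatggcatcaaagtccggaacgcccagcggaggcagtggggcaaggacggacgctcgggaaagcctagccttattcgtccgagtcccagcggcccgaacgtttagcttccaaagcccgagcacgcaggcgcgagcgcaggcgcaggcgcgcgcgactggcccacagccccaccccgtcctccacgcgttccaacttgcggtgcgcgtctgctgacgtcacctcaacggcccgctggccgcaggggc
Bax (chr7:45466899-45467148, minus strand): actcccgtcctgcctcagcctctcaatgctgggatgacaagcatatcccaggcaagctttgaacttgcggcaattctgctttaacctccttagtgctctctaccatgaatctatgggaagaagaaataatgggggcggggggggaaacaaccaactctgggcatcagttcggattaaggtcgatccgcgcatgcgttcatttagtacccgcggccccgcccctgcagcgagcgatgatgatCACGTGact
Bbc3 (chr7:16310181-16310430, plus strand): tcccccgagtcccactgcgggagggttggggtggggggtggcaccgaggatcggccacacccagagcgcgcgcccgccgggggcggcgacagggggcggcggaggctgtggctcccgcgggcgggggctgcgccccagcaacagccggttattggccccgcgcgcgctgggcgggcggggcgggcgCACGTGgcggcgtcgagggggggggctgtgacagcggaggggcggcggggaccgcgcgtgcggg

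Mcl1 carried 1 TEAD core, whose first base lay 199 bp before the start, and Bcl2l1 carried 1 at its outermost start, 108 bp before it. Bax had 2 E-boxes, with first bases 9 bp before and 36 bp after the start, the latter beyond the printed stretch. Bbc3 had 1 E-box, 64 bp before the third of its annotated starts. No KO peak overlapped that window, since the KO peak of Bbc3 reached only the window of the first start. The window of Birc2 lay under the strongest WT peak whose KO peak also covered a start, and held none of the 3 motifs. Across all 32851 start windows, 14.7% held the TEAD core, 7.81% the AP-1 letters and 7.15% the E-box. Among the 8405 windows overlapping a WT peak, the shares were 13.4%, 5.70% and 11.5%. Of the 18 start windows of the genes examined here, 2 held the TEAD core (11.1%) and 2 the E-box (11.1%). Of the 15 of these windows that overlapped a WT peak, 2 held the TEAD core (13.3%) and 2 the E-box (13.3%). Whether these shares differ from those of all windows was not tested. A match is a run of letters and not a shown site, and windows of the same gene can overlap.

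YAP lay over the start of most of these genes in WT. A WT peak overlapped a start window by at least 1 bp at 8 of the 10 genes, all but Bcl2 and Bid, against 36.1% of the 17274 protein-coding genes with a window. A KO peak did so at 4 of the 10, Mcl1, Birc2, Bax and Bbc3, against 10.8% of genes. With a stricter limit on peaks, −log10 q of at least 10, the number of genes fell to 5 in WT and 1 in KO. With the WT list shortened to as many peaks as the KO list, it fell to 3 in WT, 1 fewer than the 4 in KO. The shares of all genes under these limits were not worked out, so the fall cannot be set against that of other genes. The windows of these genes were rich in G and C, with a median of 61.6%, against 52.7% for all windows and 62.3% for those overlapping a WT peak.

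A WT peak sharing at least 1 bp with a KO peak is called kept, which held for 15 of the 40 (37.5%, exact 95% interval 22.7 to 54.2), close to the 39.1% of all WT peaks. The interval covers counting error only. With 50% reciprocal overlap 22.5% of them were kept, against 32.1% of all WT peaks. All 15 KO peaks overlapped a WT peak (interval from 78.2%), against 99.0% of all KO peaks, so no KO peak at these genes lacked a WT peak. With 50% reciprocal overlap 60.0% of the 15 KO peaks overlapped a WT peak, and the share of all KO peaks by that rule was not worked out. Every one of the 10 genes had a WT peak, against 53.2% of 21631 protein-coding genes, and 7 had a kept peak, against 30.0%. Bid, Bmf and Bcl2l11 had WT peaks and no kept peak, which held for 43.7% of genes with a WT peak.

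**Figure D1:**
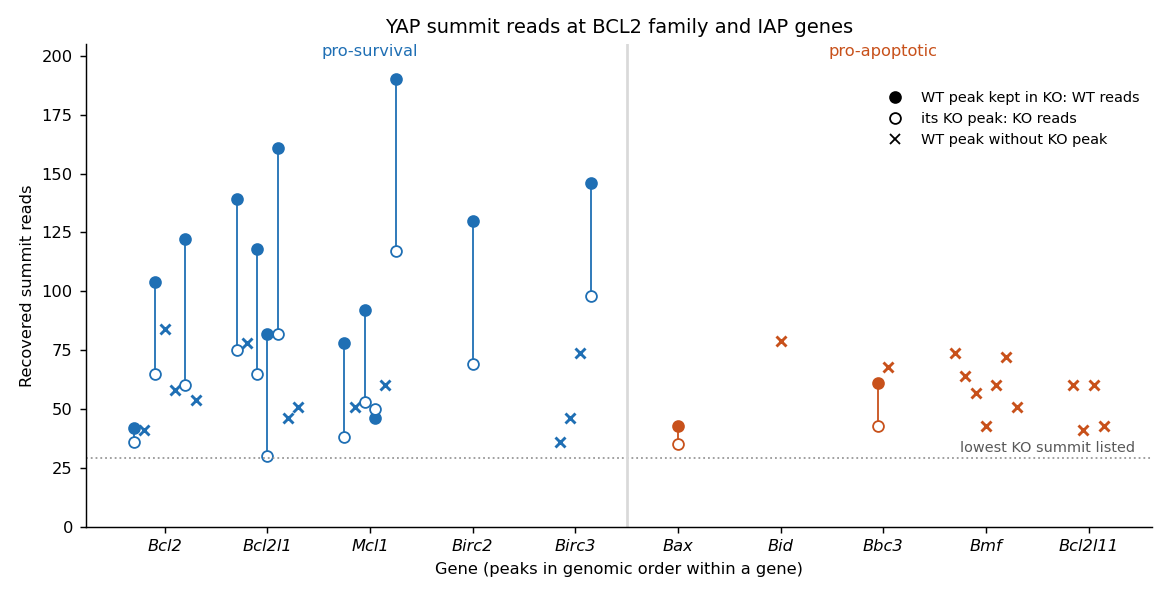
Summit reads (y axis) of the 40 WT peaks by gene, in genomic order within a gene. Filled circles are WT reads of kept peaks, joined to open circles for the KO reads, and crosses are WT peaks without a KO peak; peaks of pro-survival genes reach 190 WT reads and those of pro-apoptotic genes 79.

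By the nearest-gene rule, the strong sites among the 40 WT peaks lay at the pro-survival genes. The 25 WT peaks of these genes held 36 to 190 reads with a median of 78, and 11 held at least 80. In the whole list 10500 of 36576 WT peaks held at least 80, and among all 10 genes 11 of 40. The 15 WT peaks of the pro-apoptotic genes held 41 to 79 reads with a median of 60, about the median of all WT peaks. Kept were 13 of the 25 pro-survival peaks (52.0%, 31.3 to 72.2) and 2 of the 15 pro-apoptotic peaks (13.3%, 1.66 to 40.5), intervals that overlap. When any summit within 100 kb counted, also inside another gene, the shares were 48.4% (31 of 64) and 28.6% (16 of 56). With the other settings tried the pro-apoptotic share ran from 0% to 15.4%. Whether a WT peak was kept moved with its reads in the whole list, from 3.82% at 40 to 49 reads to 31.8% at 60 to 69 and 99.7% at 120 to 149. Adding up the share of each peak's own read band gives 13.0 kept peaks for the pro-survival genes and 3.98 for the pro-apoptotic genes. From 40 to 79 reads, 3 of 13 pro-survival peaks and 2 of 15 pro-apoptotic peaks were kept, against 20.4% of all WT peaks in that range. Within that range the share of all WT peaks kept rose from 3.82% at 40 to 49 reads to 54.9% at 70 to 79. These counts are therefore not at equal reads. Whether the roles differ at equal reads was not tested, and the peaks are few.

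**Figure D2:**
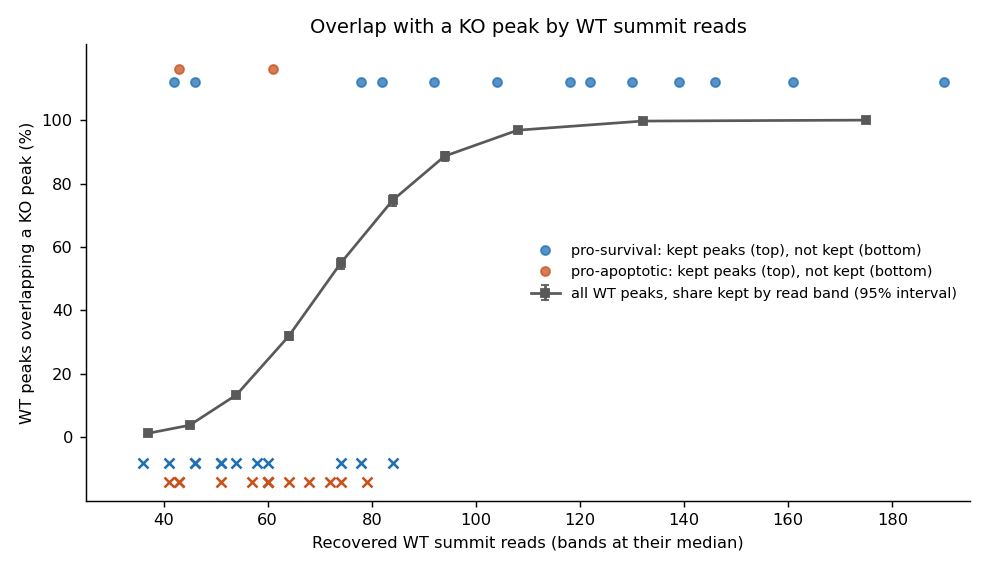
Share of all WT peaks that overlapped a KO peak (y axis, percent, with exact 95% intervals) by band of WT summit reads (x axis). Circles above and crosses below mark the kept and unkept WT peaks of the 10 genes. From 100 reads on, 8 of 8 were kept, against 6031 of 6114 in the whole list.

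Mcl1, whose short-lived product blocks BAK and BAX, had 6 WT peaks on chromosome 3, 4 of them kept, though its span is only 6.24 kb long. At least 6 WT peaks were linked to 7.19% of protein-coding genes. The strongest site of all 10 genes lay 5030 bp beyond the 3′ end of the span (95667669 to 95668668), with 190 WT reads and 117 KO reads. The log2 ratio of KO to WT, each with the background taken off, was -0.75 ± 0.18 (counting SE, as for all ratios below), and 1.48% of all WT peaks held as many reads. The peak over the start (95658503 to 95659976) had 92 WT and 53 KO reads, a log2 ratio of -0.93 ± 0.30. It was not kept under 50% reciprocal overlap, since the WT peak was 1474 bp wide and its KO peak narrower.

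The remaining Mcl1 peaks were weaker. The peak 6118 bp before the span had 78 WT and 38 KO reads. The peak 1170 bp beyond the 3′ end (95664079 to 95664642) was the only kept peak of the 10 genes with more reads in KO, 50 against 46 in WT. Its log2 ratio of 0.15 ± 0.37 includes no change, and its KO summit lay 218 bp from the WT summit, so it was not kept with a limit of 200 bp between summits. Among all kept WT peaks of 40 to 49 reads, 26 of 293 had a ratio above 0, and only peaks strong enough to be listed in KO enter such ratios. The peaks with 51 and 60 WT reads, 1256 bp before the span and 3099 bp beyond it, had no KO peak.

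Bcl2l1, which encodes BCL-XL, a survival protein prominent in epidermis, had 7 WT peaks inside its span of 75.1 kb on chromosome 2, 4 of them kept. At least 7 WT peaks were linked to 5.42% of protein-coding genes. The strongest (152827111 to 152828679), 1044 bp after the innermost annotated start, had 161 WT and 82 KO reads, a log2 ratio of -1.07 ± 0.22. The WT peak covered that start and its KO peak did not. Deep in the gene, 35784 bp from the nearest start, the peak from 152792261 to 152793153 had 139 and 75 reads (-0.99 ± 0.23). The peak from 152816283 to 152817501 had 118 and 65 reads (-0.97 ± 0.26), in a band, 100 to 119 reads, where 96.8% of WT peaks were kept. These 3 ratios lay within 1 counting SE of each other. The first and the third of these peaks were not kept under 50% reciprocal overlap.

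The lowest ratio of the 10 genes was also at Bcl2l1. The peak from 152820194 to 152820756 had 82 WT reads and 30 KO reads, near the lowest listed KO summit, a log2 ratio of -1.83 ± 0.43. Of all kept WT peaks with 80 to 89 reads, 5% lay below -1.39. Its KO summit lay 106 bp from the WT summit, so the KO value was read at a different position. Over the other 2 starts, WT peaks of 46 and 51 reads had no KO peak, and neither had a peak of 78 reads from 152811271 to 152811772.

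Bcl2, the founding survival gene of the family, had 7 WT peaks on chromosome 1, 5 of them inside its span of 176 kb and none over its start. The peak from 106629702 to 106630582, 84048 bp into the gene, had 122 WT and 60 KO reads (-1.16 ± 0.26). Further in, 3 WT peaks followed each other at summit distances of 1178 and 1540 bp, with 104, 84 and 58 reads. Of these only the strongest (106602367 to 106603017) was kept, with 65 KO reads and a log2 ratio of -0.77 ± 0.26. The peak of 84 reads (106603637 to 106604124) was the only one of the 11 WT peaks with at least 80 reads that was not kept; in the whole list 74.7% of peaks with 80 to 89 reads were kept. Beyond the 3′ end, a weak peak at 24756 bp was kept with 42 WT and 36 KO reads (-0.30 ± 0.44), and another at 11819 bp with 41 WT reads was not. The peak nearest the start, 35829 bp into the gene, had 54 WT reads and no KO peak.

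Birc2 and Birc3, which encode cIAP1 and cIAP2, lie next to each other on chromosome 9 with Yap1, the gene of YAP itself, as the following neighbour. Birc2 had 1 WT peak, over its start (7836481 to 7837923), with 130 WT and 69 KO reads (-1.02 ± 0.24). Its WT peak was 1443 bp wide and was not kept under 50% reciprocal overlap. Birc3 had a WT peak of 46 reads over its start and one of 36 reads inside the gene, neither of them kept. In the whole list 1.27% of WT peaks under 40 reads were kept.

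The strong site at Birc3 lay outside the gene, between it and Yap1. This peak (7900857 to 7901485) was 27976 bp from Birc3 and 30818 bp from Yap1, so its link to Birc3 rests on a small difference in distance. It had 146 WT and 98 KO reads, and its log2 ratio of -0.63 ± 0.21 was the highest among the 6 peaks with at least 120 WT reads. In the band of 120 to 149 reads, the middle 90% of kept WT peaks ran from -1.39 to -0.58, which includes it. A peak of 74 WT reads, 8750 bp before Birc3, was not kept.

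**Figure D3:**
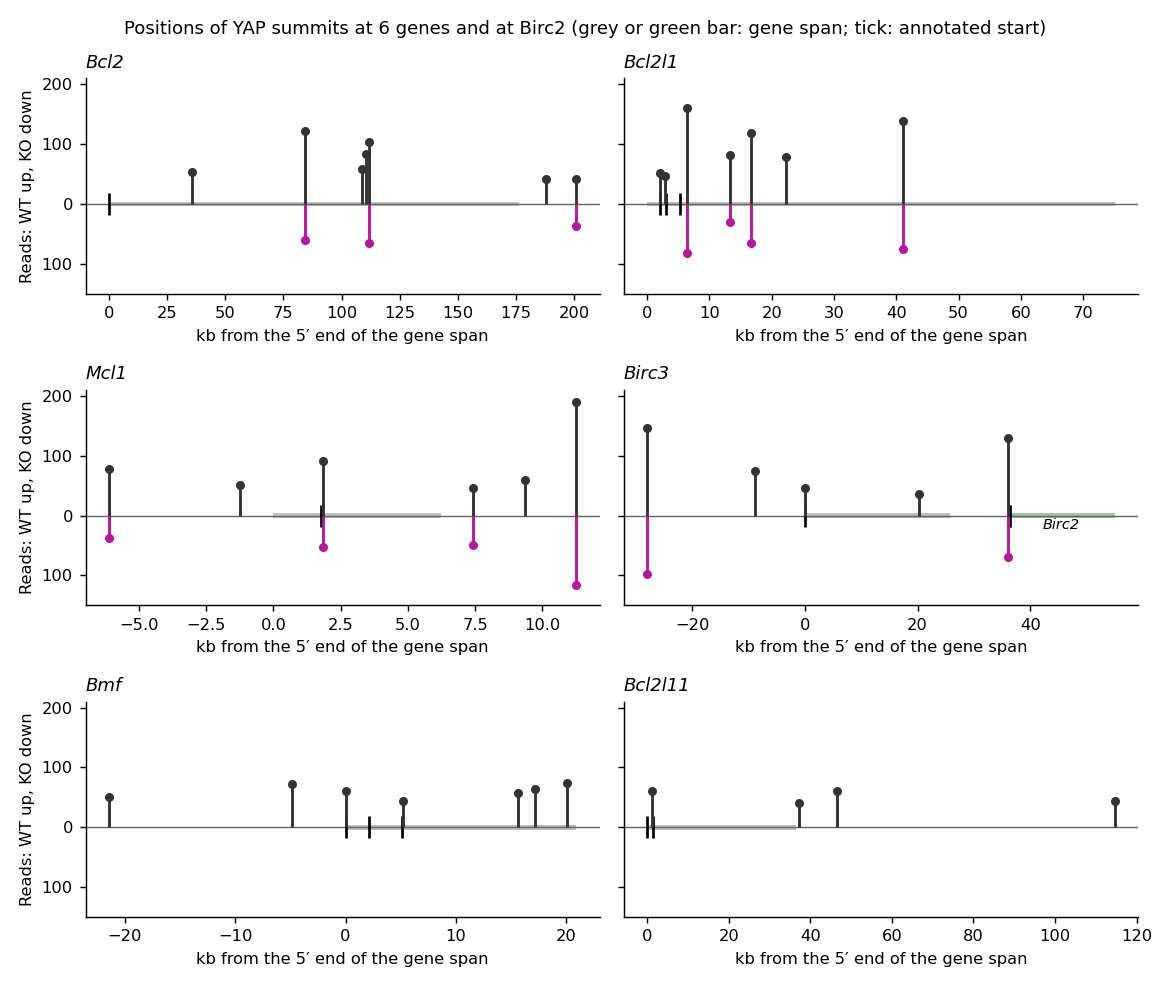
Summit positions (x axis, kb from the 5′ end of the gene span) and reads (y axis, WT upward in black, KO downward in magenta) at Bcl2, Bcl2l1, Mcl1, Birc3 with Birc2, Bmf and Bcl2l11. Bars are gene spans and ticks annotated starts; the tallest Mcl1 site lies beyond the 3′ end, and Bmf and Bcl2l11 show no KO summit.

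Among the pro-apoptotic genes, Bmf had the most WT peaks and no kept peak. BMF is a BH3-only protein that senses detachment and cytoskeletal stress. Its 7 WT peaks on chromosome 2 held 74, 64, 57, 43, 60, 72 and 51 reads in genomic order. They ran from near the 3′ end of the gene (118529337 to 118529812, 74 reads) to a point 21444 bp before its start. The peak over the outer start (118549393 to 118549847) had 60 reads and the one over an inner start 43 reads. The read bands of these 7 peaks add up to 2.04 kept peaks.

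Bcl2l11, the gene of BIM, had 4 WT peaks of 60, 41, 60 and 43 reads, none of them kept, where the read bands add up to 0.713. The peak from 128127127 to 128127925 overlapped the inner of its 2 start windows. Over its outer start lay another WT peak (128125711 to 128126325, 58 reads, not kept), which the rule links to Acoxl because its summit lies inside that gene, 212 bp from Bcl2l11. The Bcl2l11 peak 78142 bp from the span, with 43 reads, was the farthest within the limit of 100 kb. The only peak beyond the limit lay 110474 bp from the same gene, with 51 reads, and was not kept either.

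Bid, whose product is cut by caspase-8 and carries death receptor signals to mitochondria, had 1 WT peak on chromosome 6 (120915353 to 120916064), 1166 bp after its start. It held 79 reads and was not kept; 54.9% of WT peaks with 70 to 79 reads were kept. Bax had 1 WT peak on chromosome 7 (45466782 to 45467551), over the start with the E-boxes shown above. It was weak, with 43 WT reads, yet kept, with 35 KO reads and a log2 ratio of -0.40 ± 0.44 that includes no change; 3.82% of WT peaks of 40 to 49 reads were kept. Bbc3, a main p53 target gene, had 2 WT peaks on chromosome 7, with 61 and 68 reads; 31.0% of protein-coding genes had at least 2. The first (16309231 to 16310379) reached the windows of all 3 annotated starts and overlapped a KO peak of 43 reads whose summit lay 463 bp away, so its log2 ratio of -0.62 ± 0.36 compares different positions. Under 50% reciprocal overlap neither Bax nor Bbc3 kept a peak.

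Fewer reads in KO than in WT were found at 14 of the 15 kept peaks, against 99.6% of all kept WT peaks. The median log2 ratio of the 15 was -0.93, from -1.83 to 0.15, and that of all 14315 kept WT peaks -0.88. At 13 of the 15 the ratio lay between the 5th and 95th percentiles of kept WT peaks in the same read band. The exceptions were the Bcl2l1 peak with 82 WT reads, below, and the Mcl1 peak with 46, above, each with a KO summit over 100 bp from the WT summit. A height of at least 120 WT reads was reached by 10.1% of all WT peaks. All 6 such peaks of these genes were kept, as were 3686 of the 3692 in the whole list. The ratios of the 6 ran from -1.16 to -0.63, with counting SEs of 0.18 to 0.26. For all kept WT peaks of that height, the 5th and 95th percentiles were -1.33 and -0.51.

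**Figure D4:**
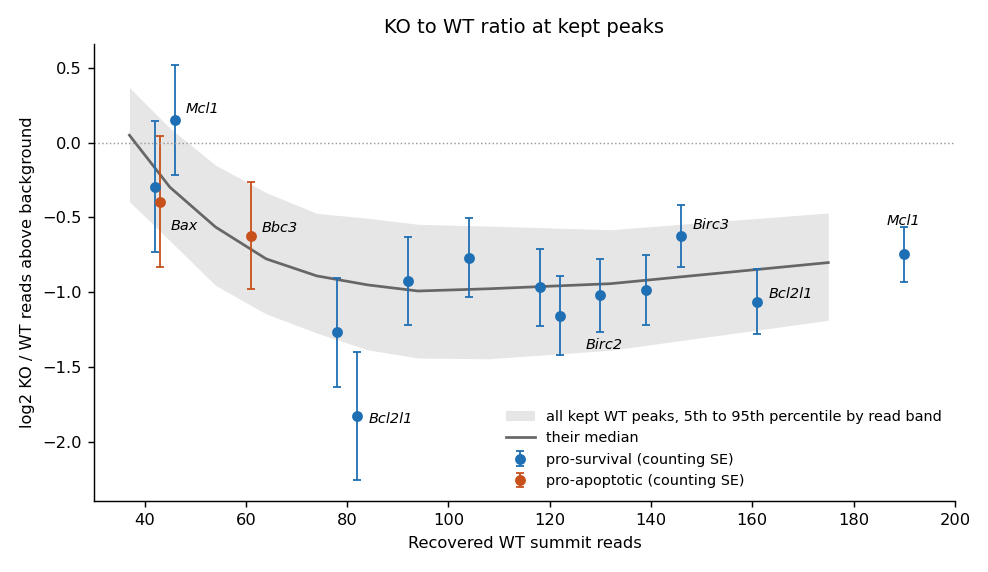
Log2 ratio of KO to WT reads above background (y axis) against WT summit reads (x axis) at the 15 kept peaks, with counting SE. The grey band is the 5th to 95th percentile of all kept WT peaks by read band and the line their median; the Bcl2l1 point at 82 reads lies below the band and the Mcl1 point at 46 reads above it.

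Positions and median width of the 40 WT peaks were near those of other YAP peaks. Inside a gene span lay 26 of the 40 WT peaks (65.0%), against 57.2% of all linked WT peaks, and 12 (30.0%) lay within 2 kb of an end of the span, against 28.7%. Median WT width was 507 bp, against 516 bp for all WT peaks. The 15 kept peaks were wider, with a median of 881 bp in WT and 461 bp for their KO peaks, against 687 and 451 bp for all kept WT peaks. Their summits lay a median of 29 bp apart between WT and KO, against 33 bp.

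Other genes of the apoptosis pathway are given beside the shares of all protein-coding genes, 53.2% with a WT peak and 30.0% with a kept one, and 39.1% of WT peaks kept. Whether a list differs from these shares, or from another list, was not tested. Of 15 further BCL2 family genes, 7 had a WT peak and 5 a kept peak, with 8 of 22 WT peaks kept (36.4%), near those shares. Bok, which encodes a relative of BAX, had 166 WT and 75 KO reads at its strongest peak, and Bcl2l14 had 119 and 76. Of 10 further IAP genes and IAP antagonists, 3 had a WT peak, all with a kept one. These were Birc6 with 110 and 63 reads, Xiap with 98 and 59, and Birc5 (survivin) with 77 and 56. The Xiap site lay 44899 bp outside the gene. Caspase and apoptosome genes had a WT peak for 8 of 12 and a kept peak for 4. The strongest was linked to Casp14, the caspase of cornifying keratinocytes, and lay 3928 bp outside the gene. It had 171 and 119 reads, and 5 of 5 WT peaks of Casp14 were kept.

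Genes of death receptors and their adaptors had a WT peak for 9 of 12 and a kept peak for 8. The strongest site was linked to Fadd, an adaptor that recruits caspase-8, 11159 bp outside the gene, with 204 and 129 reads. Fas had 148 and 80 reads at a site 41953 bp away. The p53 family and its regulators had a WT and a kept peak for 5 of 5 genes, with 20 of 35 WT peaks kept (57.1%). Of these, 24 WT peaks were at Trp63, the master factor of basal keratinocytes, whose strongest had 235 and 156 reads. Trp53 had 1 WT peak, with 120 and 65 reads. Over the read bands, 17.8 kept peaks would come from the p53 family, 9.37 from the other BCL2 genes, 4.77 from the other IAP genes, 6.78 from the caspases and 11.1 from the death receptors, where 20, 8, 5, 8 and 10 were kept.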

How the data were processed

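Per the submitters' processing notes, Trimmomatic 0.36, SAMtools 1.5 and MACS2 2.1.1 were used with mm10, without their roles; no aligner, control or filter is named in the sources used here. Each deposited list has 10 columns. The authors' score is 10 times the deposited −log10 q, truncated, and the authors' fold is the ratio of summit signal to local background. The lowest −log10 q lay just above 2.

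From fold and −log10 p, whole summit reads were recovered by searching the ChIP scaling (0.694 in WT, 0.842 in KO). A whole number matched −log10 p within 0.002 in 100% of peaks, and in 0.932% and 0.397% with the scaling 3% off. The procedure was tested on simulated data. Ratios use the strongest overlapping KO peak, minus 9.63 background reads in each list; their SE is from Poisson counting. Intervals are exact Clopper-Pearson. Python 3.11.15, pandas 2.3.3 and scipy 1.17.1 were used.

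Gene spans and start windows came from RefSeq tables of GRCm38.p6. All 10 genes are described, each with its strongest, strongest unkept and start-nearest peaks; of other lists at most 3 genes are named, by WT reads. The genes, lists and use of recovered reads were chosen with earlier results of these data known. With 1 list per genotype no test was run. No genome sequence of the peaks was used here.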

Additional observations from a re-analysis of the deposited data

How the results depend on the processing

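The median log2 ratio stayed between -1.002 and -0.769 over all alternatives, and the kept share stayed higher for pro-survival than pro-apoptotic genes. In the main setting 11 pro-survival and 0 pro-apoptotic WT peaks held at least 80 reads. The read bands of all WT peaks there give 13.0 of 25 and 3.98 of 15 kept. Of the main values, 34 stayed near the reported value and 14 moved: shares beyond the exact 95% interval of the reported share, counts by over 1.5 times. WT peaks numbered 120 when any summit within 100 kb counted, 18 when only as many WT peaks as KO peaks were used (the reduced list, by score), and 25 when −log10 q had to reach 10 (the q limit). The share of WT peaks kept was 61.1% with the reduced list (77.8% for all WT peaks) and 22.5% with 50% reciprocal overlap. KO peaks overlapping a WT peak were 73.3% and 60.0% under these settings, for which the shares of all KO peaks were not worked out. With the reduced list 78.6% of pro-survival peaks were kept. Pro-apoptotic genes kept 0% with the reduced list, the q limit and reciprocal overlap, of 4, 9 and 15 WT peaks. Within its wide interval their share still moved by over 1.5 times, to 28.6% (pro-survival 48.4%) with any summit within 100 kb, narrowing the gap, and to 6.67% (48.0%) with summits within 200 bp. Genes with a WT peak over a start numbered 3 with the reduced list and 5 with the q limit. Genes with a KO peak over a start numbered 1 under the q limit. With the reduced list WT had 3 and KO 4, the order turned from 8 and 4. The shares of all genes under these settings were not worked out. Reduced lists hold fewer, stronger peaks by construction; other causes were not tested. Counts of single genes moved in 39 of 120 cases. Bmf and Bcl2l11 had 0 kept peaks throughout. Shorter link distances, the reduced list, the q limit and reciprocal overlap could not have added any. Sites below the calling limit were not analysed here. No paired analysis was possible because there is 1 list per genotype.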

Other observations

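Strong YAP sites also lay within 100 kb of some of the 10 genes but nearer to, or inside, another gene. Counted gene by gene, so that a site near several genes counts at each, there were 89 such WT peaks. Of these 35 were kept, where 39.1% of all WT peaks were kept. The sites named below were picked as strong ones, and all were kept. A site linked to Ntf5, 47343 bp from Bax, had 207 WT and 117 KO reads, far above the 43 and 35 reads at the start of Bax. A site linked to Phlpp1, 88227 bp from Bcl2, had 203 and 125 reads. A site linked to Adamtsl4, 12418 bp from Mcl1, had 165 and 98 reads. Id1, next to Bcl2l1, had sites of 123 and 53 reads and of 120 and 81 reads. Mical3, 78698 bp from Bid, had 110 and 71 reads, where Bid itself had no kept peak. Which gene any of these sites acts on was not tested.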
